A study of Sus scrofa with 48 samples.

Results

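The genes described here encode antimicrobial proteins that neutrophils store in their granules, among them the porcine cathelicidins PMAP-23 and PR39. The other genes were PGLYRP1, LCN2, TCN1, HP, LTF, BPI and MPO. Members were taken by gene name: 23 spots of the array carried 1 of the 9 names, and 19 of these spots, for 7 genes, were among the 37113 spots that the authors retained in their table of the series. HP had 6 retained probes, LCN2, LTF and TCN1 had 3 each, PGLYRP1 had 2, and PMAP-23 and PR39 had 1 each. The other 4 spots, both of BPI, the 1 of MPO and a further one of PGLYRP1, were left out of that table and are described apart.

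Arrays were run on whole blood RNA of 48 castrated male French Large White pigs (purebred), bled at slaughter when they were 132 days old. The pigs came from 2 lines bred in opposite directions on residual feed intake (RFI), a measure of feed efficiency that is low in pigs eating less than their performance calls for and high in pigs eating more. In each line, 12 pigs had free access to a diet rich in fat and fiber (HF diet) and 12 to a diet poor in both (LF diet), which gives 4 groups of the same age and sex. Each pig was hybridised to 1 single-colour array. The probe values are log2 intensities minus the median of the array, so that 1 unit is a change of 2-fold. A value shows a probe against itself between pigs, and the levels of different probes were not compared.

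Neutrophils make their granule proteins while they mature in the bone marrow, and circulating neutrophils keep only part of the transcripts. Azurophil granules, filled first, hold myeloperoxidase and BPI. Specific granules, filled later, hold lactoferrin, lipocalin 2, transcobalamin 1 and the precursors of cathelicidins, which are cut to free a short peptide that damages microbes. Whole blood RNA also holds transcripts of lymphocytes, monocytes, platelets and young red cells, and a lower level of a neutrophil transcript in such RNA cannot be told apart from fewer neutrophils. The study also counted blood cells of these pigs, and those counts were not analysed here.

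The probe sequences, each 60 bases long, show which spots repeat one measurement. The 3 LCN2 spots carried a single sequence, as did both retained PGLYRP1 spots, and both are shown because the spread between such spots is the noise of a spot within an array. The HP spots included 2 with the same sequence and 1 shifted by a base. The part in capitals is the run of 57 bases that this shifted probe shares with them. The MPO probe is shown because it stood outside the series table and followed the 7 genes with retained probes.
LCN2, all 3 spots: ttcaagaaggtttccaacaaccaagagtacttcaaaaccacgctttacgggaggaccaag
PGLYRP1, both retained spots: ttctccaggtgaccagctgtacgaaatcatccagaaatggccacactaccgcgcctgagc
HP, 2 spots: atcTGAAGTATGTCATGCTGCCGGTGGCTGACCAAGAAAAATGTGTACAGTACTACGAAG
HP, shifted spot: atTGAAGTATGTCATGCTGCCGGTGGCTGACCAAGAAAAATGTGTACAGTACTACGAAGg
MPO, the spot left out of the table: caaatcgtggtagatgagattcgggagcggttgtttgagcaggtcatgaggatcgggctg

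Over the 48 arrays the SD of a single spot, from the differences between identical LCN2 spots, was 0.089 to 0.10, and from the identical PGLYRP1 spots it was 0.11. The SD of LCN2 between pigs of one group was 0.83 and that of PGLYRP1 was 0.74. The spot SD covers noise between spots of the same array and leaves out labelling and hybridisation. Probes of a gene with other sequences also moved together over pigs, and with group means removed r was 0.94 to 0.99 among HP probes, 0.97 among TCN1 probes and 0.96 among LTF probes that shared at most 9 bases in a row. The TCN1 pair that shared 49 bases had an r of 0.96 and the LTF pair that shared 44 had 0.998.

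PMAP-23 and PR39 are neighbours in the cathelicidin cluster of chromosome 13, where the RefSeq annotation of Sscrofa11.1 lists NPG4, PR39, PMAP-23, NPG1 and PMAP-36 in that order, with further loci between some of them. The single PMAP-23 probe holds, at bases 41 to 58, a run of 18 bases that forms the last bases of an NPG4 probe of the array. NPG4 encodes a protegrin, another porcine cathelicidin peptide. Bases 31 to 60 of both probes are shown, with that run in capitals, because a shared run bears on how far the array tells these genes apart.
PMAP-23 probe, bases 31 to 60: aggactggaaAAATAAATTCTTGTGAAAgc
NPG4 probe, bases 31 to 60: cccgcatctgtcAAATAAATTCTTGTGAAA
The PR39 probe shared at most 8 bases in a row with an NPG4 probe and 6 with the PMAP-23 probe. Whether PMAP-23 and NPG4 transcripts bind to each other's probe was not tested.

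PMAP-23 encodes a linear, membrane-active peptide. In high RFI pigs fed the LF diet its values ran from -2.35 through a median of -1.08 to 2.55, and in high RFI pigs fed the HF diet from -0.97 through 1.35 to 5.67. In low RFI pigs they ran from -0.69 through 0.54 to 3.97 under the LF diet and from -2.17 through 1.97 to 5.10 under the HF diet. High RFI pigs fed the LF diet were thus the lowest group by median, and the ranges of all 4 groups overlapped. The group means were 1.24 ± 1.5 (SD, n = 12) in low RFI LF pigs, 1.98 ± 1.94 in low RFI HF pigs, -0.70 ± 1.46 in high RFI LF pigs and 1.57 ± 2.36 in high RFI HF pigs. From the lowest to the highest of the 48 pigs the level differed 261-fold.

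PR39 encodes a peptide rich in proline and arginine. Its values ran from -1.85 through a median of 1.16 to 5.19 in high RFI LF pigs and from -1.12 through 3.73 to 7.80 in high RFI HF pigs. In low RFI pigs they ran from 0.13 through 2.53 to 4.54 under the LF diet and from -0.68 through 3.72 to 5.97 under the HF diet. The order of the group medians was led by both HF groups, which were nearly equal, and the 4 groups overlapped here too. The means were 2.67 ± 1.62 in low RFI LF pigs, 3.50 ± 1.90 in low RFI HF pigs, 1.47 ± 2.15 in high RFI LF pigs and 3.39 ± 2.63 in high RFI HF pigs. The lowest and the highest pig differed 806-fold, more than for any other member.

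**Figure D1:**
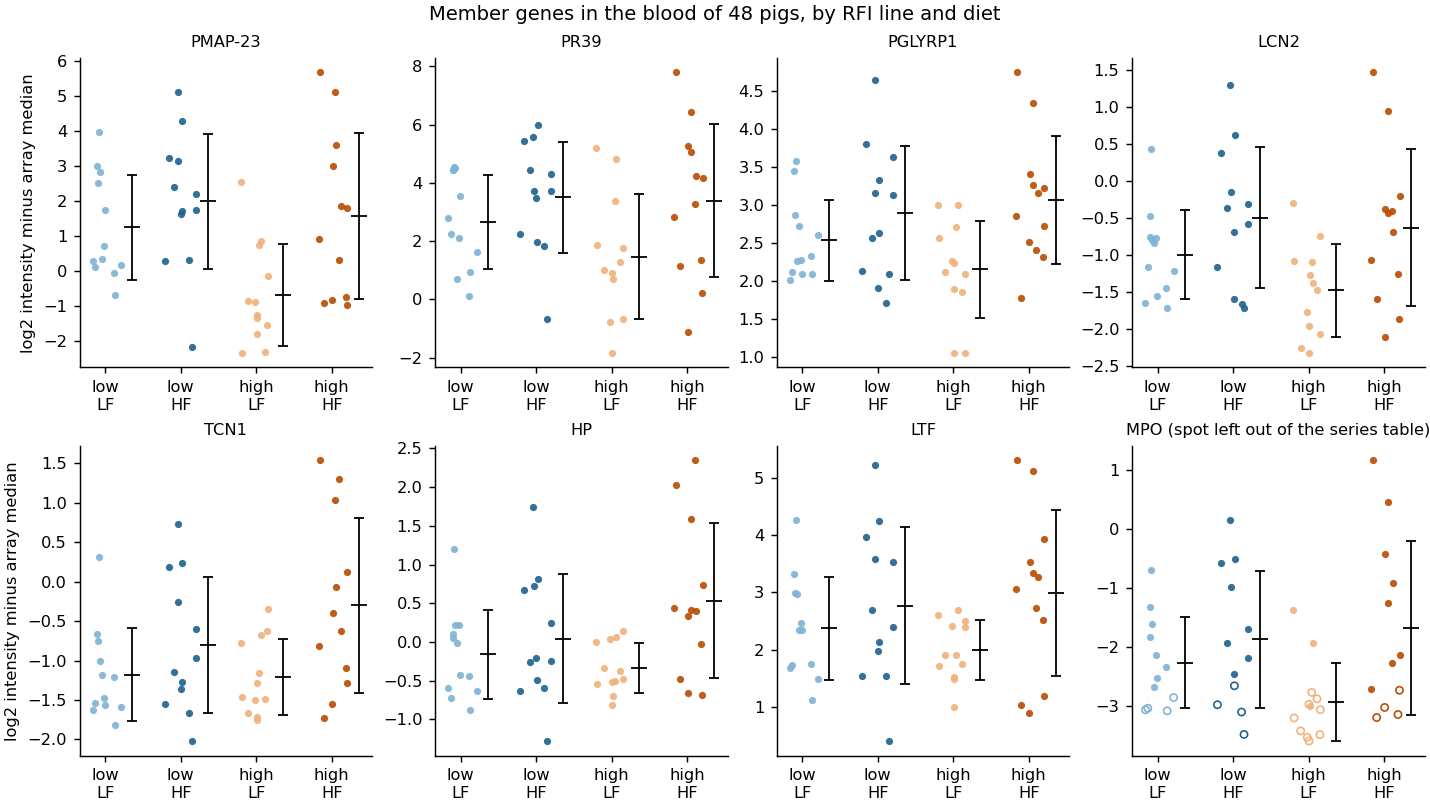
Each point is 1 pig, and the y axis is the log2 intensity minus the median of the array (mean of the retained probes of a gene). The x axis gives the RFI line and diet. The bars are the group mean and 1 SD (n = 12), and open circles in the MPO panel are arrays on which its spot was not well above background. High RFI pigs fed the LF diet had the lowest mean of the 4 groups for each of the 7 genes and for MPO, though for TCN1 the means of both LF groups were nearly equal.

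LTF encodes lactoferrin, which binds iron. Its values ran from 1.13 through a median of 2.34 to 4.27 in low RFI LF pigs, from 0.40 through 2.55 to 5.21 in low RFI HF pigs, from 1.0 through 1.92 to 2.70 in high RFI LF pigs and from 0.90 through 3.16 to 5.30 in high RFI HF pigs. The high RFI LF pigs spanned the narrowest range, and 8 of 12 high RFI HF pigs lay above the highest of them. LCN2 encodes lipocalin 2, which binds the iron carriers of bacteria. Its medians were -1.0 and -0.48 in low RFI pigs fed the LF and HF diets and -1.42 and -0.56 in high RFI pigs, and the highest pig reached 1.47. The groups overlapped, with 3 of 12 high RFI HF pigs above the highest high RFI LF pig and 2 of 12 low RFI HF pigs above the highest low RFI LF pig.

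TCN1 encodes transcobalamin 1, which binds vitamin B12. Its group means were -1.18 ± 0.59 in low RFI LF pigs, -0.81 ± 0.86 in low RFI HF pigs, -1.20 ± 0.48 in high RFI LF pigs and -0.30 ± 1.11 in high RFI HF pigs. HP encodes haptoglobin, a plasma protein that binds free haemoglobin, made mainly by the liver and also kept in neutrophil granules. Its means were -0.16 ± 0.58, 0.04 ± 0.83, -0.34 ± 0.32 and 0.53 ± 1.0 in the same order. In both genes the high RFI HF group had the highest mean and the widest spread. PGLYRP1 encodes a protein that binds the peptidoglycan of bacterial walls, and its means were 2.53 ± 0.53, 2.89 ± 0.88, 2.15 ± 0.64 and 3.06 ± 0.84 in the same order, so that HF pigs had the higher mean in each line.

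MPO encodes myeloperoxidase, the enzyme that makes hypochlorous acid. Its only spot was well above background on 27 of 48 arrays, namely 8 of 12 low RFI LF, 8 of 12 low RFI HF, 3 of 12 high RFI LF and 8 of 12 high RFI HF pigs. Its raw intensity had a median of 52.8 and reached 1069. Its values ran from -3.60 through a median of -3.04 to -1.39 in high RFI LF pigs and from -3.20 through -2.22 to 1.16 in high RFI HF pigs, so that 5 of the latter lay above all of the former. In low RFI pigs they ran from -3.09 through -2.44 to -0.69 under the LF diet and from -3.49 through -2.06 to 0.14 under the HF diet, and 3 of 12 HF pigs lay above the highest LF pig. The HF minus LF difference of MPO was 1.25 (SE 0.47) in high RFI and 0.40 (SE 0.40) in low RFI pigs. Many of these values, above all in high RFI LF pigs, lay near background, so that the size of both differences is uncertain. BPI encodes a protein that permeabilises Gram-negative bacteria. Its 2 spots were well above background on 9 and on 6 arrays and their raw intensity stayed between 32 and 64, so that BPI was not detectable on most arrays.

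The HF and LF diets were compared as a description only, because 6 of the 9 members had been named from their response to diet in these same arrays. All 7 genes with retained probes had a higher mean in HF pigs, against 56.0% of the 26924 gene names of the retained spots. The HF to LF fold change (FC) was 2.84 for PMAP-23, 2.60 for PR39, 1.62 for LTF, 1.59 for LCN2, 1.56 for TCN1, 1.55 for PGLYRP1 and 1.45 for HP. At the thresholds of the methods (P-value below 0.01 and FC above 1.1) applied to the limma fit, 11 of the 19 probes were higher in HF pigs, against 0.186% of all probes. The count was 9 by the analysis of variance of the methods, 7 with background-corrected, median-centred signal and 16 without high RFI HF replicate 1. The 11 probes were the 3 LCN2 probes, both PGLYRP1 probes, the PMAP-23 probe, 2 TCN1 probes and 3 HP probes. Nearest to those thresholds, an HP probe inside them was 0.43 higher and a TCN1 probe outside them was 0.60 higher in HF pigs on the log2 scale. In this comparison no probe of the array reached an adjusted P-value below 0.05 by limma, while 1.64% had an unadjusted P-value below 0.05.

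Within each line the diets differed in the same direction for all 7 genes and by more in high RFI pigs. For PMAP-23 the HF minus LF difference was 2.26 (SE 0.80), an FC of 4.8, in high RFI pigs and 0.74 (SE 0.71), an FC of 1.67, in low RFI pigs. For PR39 it was 1.92 (SE 0.98) in high RFI and 0.83 (SE 0.72) in low RFI pigs. All 12 high RFI HF pigs lay above the median of high RFI LF pigs for PMAP-23 and 11 of 12 for PGLYRP1, while 9 and 8 of 12 low RFI HF pigs lay above the median of low RFI LF pigs. PGLYRP1 differed by 0.91 (SE 0.31) in high RFI and 0.36 (SE 0.30) in low RFI pigs, and LCN2, TCN1, HP and LTF by 0.84 to 1.0 and by 0.20 to 0.50.

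The interaction of line and diet tests whether these differences in diet response exceeded the spread between pigs. It was called for 0 of the 19 member probes at an adjusted P-value below 0.05 in limma, and for 0.0% of all 37113 probes. At an unadjusted P-value below 0.05 it was called for 0 of 19 member probes, against 2.28% of all probes. The interaction, taken as the HF minus LF difference of low RFI pigs less that of high RFI pigs, was -1.52 (SE 1.03) for PMAP-23, -1.08 (SE 1.17) for PR39, -0.67 (SE 0.41) for HP and -0.34 (SE 0.46) for LCN2. Its adjusted P-value was 0.89 for each of the 7 genes. The 7 estimates were all negative, and the genes moved together over pigs, so that they are not 7 separate observations.

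**Figure D2:**
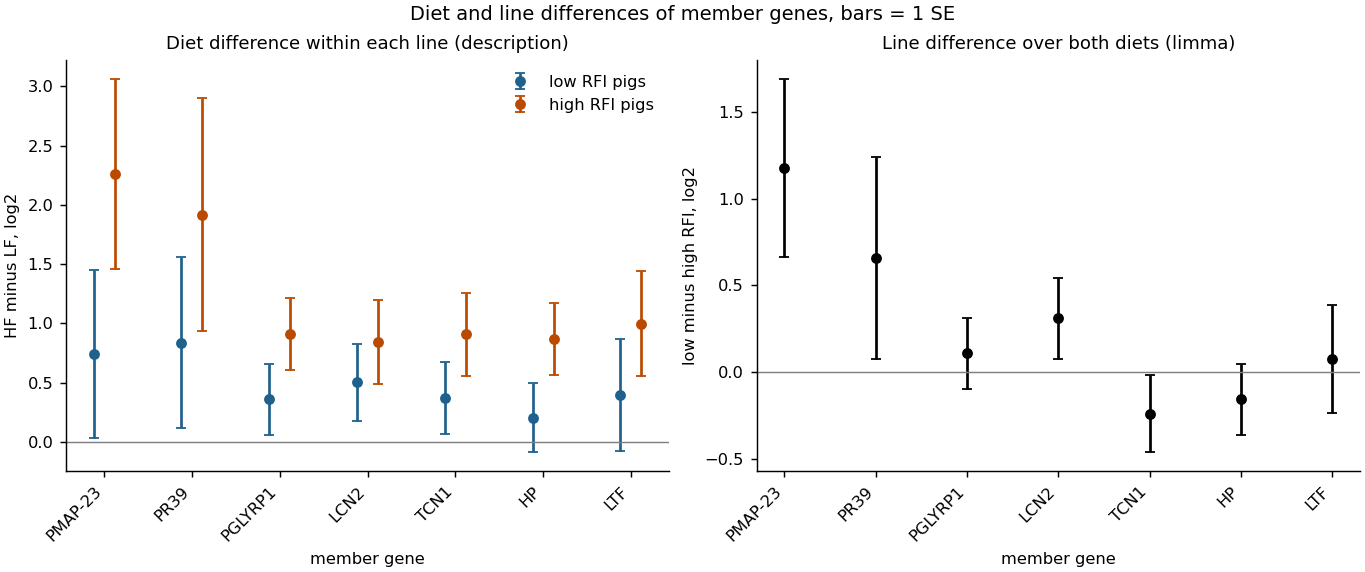
The left panel gives the HF minus LF difference of each of the 7 genes with retained probes within low RFI and high RFI pigs, and the right panel gives the low minus high RFI difference over both diets. Both y axes are log2 differences, and the bars are 1 SE. For these 7 genes each diet difference is above 0 and larger in high RFI than in low RFI pigs, and the line differences lie on both sides of 0.

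The line comparison asks whether the granule genes differed between pigs selected for low and for high RFI, and the members had not been chosen on it. None of the 19 member probes passed at an adjusted P-value below 0.05 in limma, against 2.77% of all probes, and 1 of 19 had an unadjusted P-value below 0.05, against 12.0% of all probes. That probe was PMAP-23. Its level was 1.18 higher in low RFI pigs (SE 0.51, adjusted P-value 0.30 over gene names in limma), an FC of 2.26, and 22 of 24 low RFI pigs lay above the median of the high RFI pigs. The means of low and high RFI pigs were 1.24 and -0.70 under the LF diet but 1.98 and 1.57 under the HF diet. The adjusted P-value of PMAP-23 ranged from 0.21 to 0.79 over the 8 alternative settings of the analysis by gene.

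For the other genes the low minus high RFI difference was 0.66 (SE 0.58) for PR39, 0.31 (SE 0.23) for LCN2, 0.11 (SE 0.21) for PGLYRP1 and 0.08 (SE 0.31) for LTF. It was below 0 for HP, at -0.16 (SE 0.20), and for TCN1, at -0.24 (SE 0.22). The adjusted P-values in limma were 0.78 for LCN2, 0.85 for PR39, 0.86 for TCN1, 0.94 for HP, 0.97 for PGLYRP1 and 0.98 for LTF. The sign for LTF depended on 1 pig: without high RFI HF replicate 1 the difference was -0.0048 (SE 0.31).

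The spread between pigs of one group was wide for the 7 genes with retained probes. Among 26924 gene names, the within-group SD of PR39 (2.11) was the fifth widest and that of PMAP-23 (1.85) was at place 8. LTF (1.12) was at place 79, and LCN2 (0.83), TCN1 (0.80), PGLYRP1 (0.74) and HP (0.73) were at places 453 to 795, while the median gene name had an SD of 0.26. HF pigs spread more widely than LF pigs in all 7 genes. The ratio of their within-group SDs was 1.97 for HP, 1.91 for LTF, 1.84 for TCN1, 1.64 for LCN2, 1.46 for PGLYRP1 and for PMAP-23, and 1.21 for PR39. A ratio above that of PR39 was found for 15.1% of gene names, and the median gene name had a ratio of 0.99. The 7 genes moved together over pigs, so that their ratios are not 7 separate observations.

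Pigs that were high in one of these genes were high in the others. With the mean of each line and diet group removed, all 21 pairs of the 7 genes were correlated over the 48 pigs, with Pearson's r from 0.67 to 0.93 (median 0.81) and Spearman's rho from 0.67 to 0.89. In a two-sided permutation test with 100000 permutations of pigs within groups, each of the 21 pairs had a P-value of 1e-05 for r and for rho, the smallest these permutations can give, and 1.3e-05 after adjustment over the 36 pairs tested. The tightest pair was TCN1 and HP (r = 0.93). PMAP-23 was as close to LTF (r = 0.90) as to PR39 (r = 0.89), and the loosest pairs were PR39 with HP and PGLYRP1 with HP (r = 0.67 in each).

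Without the 2 pigs farthest from the median of the first gene of a pair, r was 0.56 to 0.95 with the group means of all 48 pigs removed. The arrays lay on 6 slides with 2 pigs of each group on a slide, and with slide means also removed r was 0.65 to 0.94. Within single slides of 8 pigs the lowest value of any of the 21 pairs was -0.02, for PGLYRP1 and HP. Within the groups, the median r of the 21 pairs was 0.92 in low RFI HF, 0.88 in high RFI HF and 0.85 in low RFI LF pigs, and 0.56 in high RFI LF pigs, the group with the narrowest range of HP, TCN1 and LTF. Whether the groups differed in r was not tested.

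**Figure D3:**
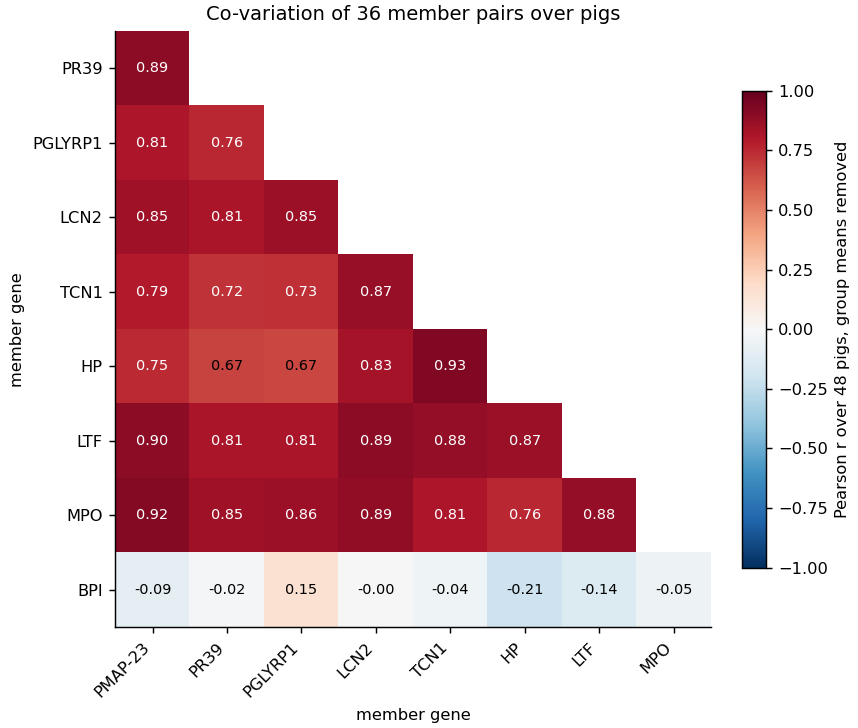
Pearson's r of each of the 36 pairs of member genes over 48 pigs after the group means were removed, on a colour scale from -1 to 1, with the gene names on both axes. The 28 pairs without BPI have r from 0.67 to 0.93, and the 8 pairs with BPI have r from -0.21 to 0.15.

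The MPO spot followed the 7 genes although it was close to background, with r from 0.76 with HP to 0.92 with PMAP-23. All 7 of these pairs had the adjusted permutation P-value of 1.3e-05. BPI, whose spots were near background on most arrays, had r between -0.21 and 0.15 with the other 8 genes, and 0 of its 8 pairs passed (lowest adjusted permutation P-value 0.18).

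**Figure D4:**
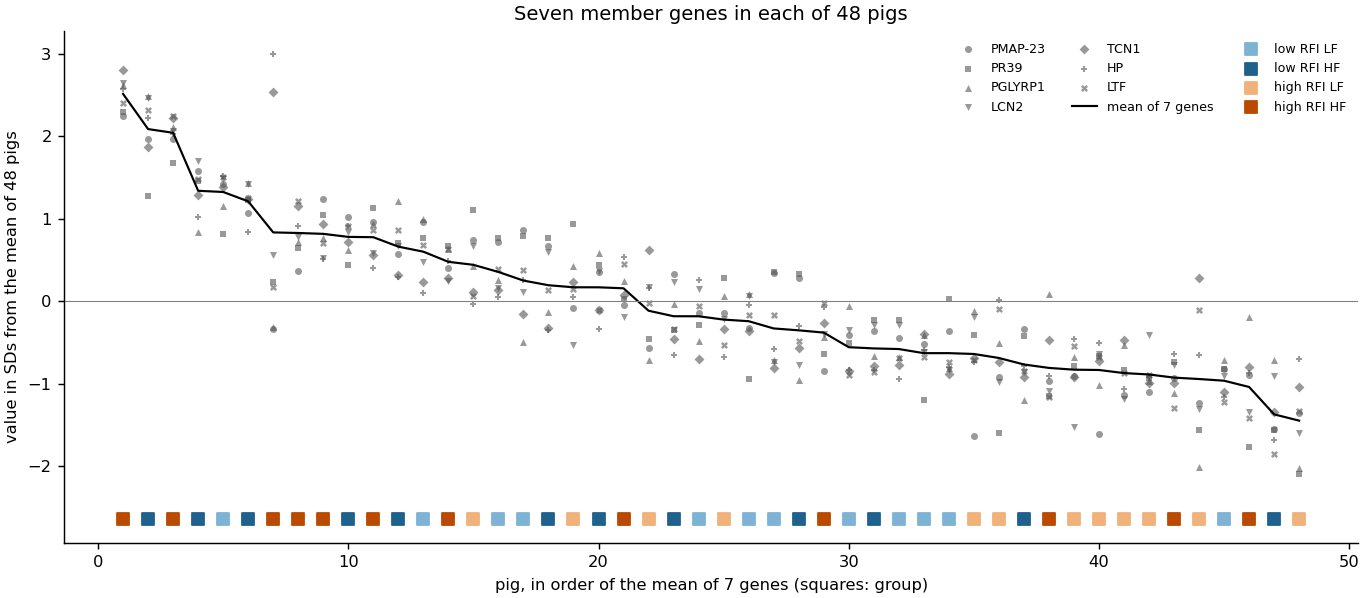
The x axis orders the 48 pigs by the mean of their 7 member genes, the y axis gives each gene in SDs from its mean over the pigs, and the squares give the group. The 12 highest pigs include 6 high RFI HF, 5 low RFI HF and 1 low RFI LF pigs, and the pig at position 7 stands out by high TCN1 and HP beside a PMAP-23 below the median. Most of the 7 genes had been named from their response to diet in these arrays, so the order by diet is a description only.

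Ranked by the mean of the 7 standardized genes, the 12 highest pigs were 6 high RFI HF, 5 low RFI HF and 1 low RFI LF pigs, lying on all 6 slides. No high RFI LF pig was among them, and 6 of the 12 lowest pigs were high RFI LF pigs. Most of the 7 genes had been named from their response to diet in these same arrays. The places of HF and LF pigs in this order are therefore a description only. Of the 48 pigs, 6 were in the top 12 for every one of the 7 genes. High RFI HF replicate 5 ranked first for 6 genes and in place 2 for HP. An exception to the common order was high RFI HF replicate 2, which had the highest HP (2.35) and the second highest TCN1 (1.30) but ranked 27 for PMAP-23 (0.32) and 23 for PR39 (3.27). Azurophil MPO was at -2.28 in that pig, in place 21.

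Among the 9110 gene names that were gene symbols and no members, those with the pattern most like the mean of the 7 members over the 48 pigs, group means removed, were NPG4 (r = 0.93), CRISP3 (r = 0.89), S100A12 (r = 0.85), RETN (r = 0.85) and S100A8 (r = 0.84). CRISP3 is a protein of specific granules, S100A8 and S100A12 are abundant calcium-binding proteins of neutrophils, and RETN encodes resistin. The names most like PMAP-23 alone were NPG4 (r = 0.96), CD5L (r = 0.87), CRISP3 (r = 0.82), BGN (r = 0.82) and FABP4 (r = 0.79). CD5L encodes a protein secreted by macrophages, BGN the matrix protein biglycan and FABP4 a fatty acid carrier of fat cells and macrophages. These values are descriptions over shared arrays, and an r above 0.5 with the member mean was found for 92 of the 26924 gene names (0.342%), with a median r of -0.05.

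Other genes of granules and of blood cells were read from lists. Of 13 other granule and cathelicidin genes with a retained probe, 3 had an r above 0.5 with the member mean, namely NPG4 (0.93), CRISP3 (0.89) and PRTN3 (0.80), the azurophil proteinase 3. PMAP-36, the cathelicidin next to NPG1, had an r of 0.47. The azurophil elastase gene ELANE had 0.10 and lysozyme, LYZ, 0.15, so that granule genes did not all follow the members. Of 13 mature neutrophil genes, S100A12 (0.85), S100A8 (0.84) and S100A9 (0.81) were above 0.5, while the chemokine receptor CXCR2 (0.26) was not.

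**Figure D5:**
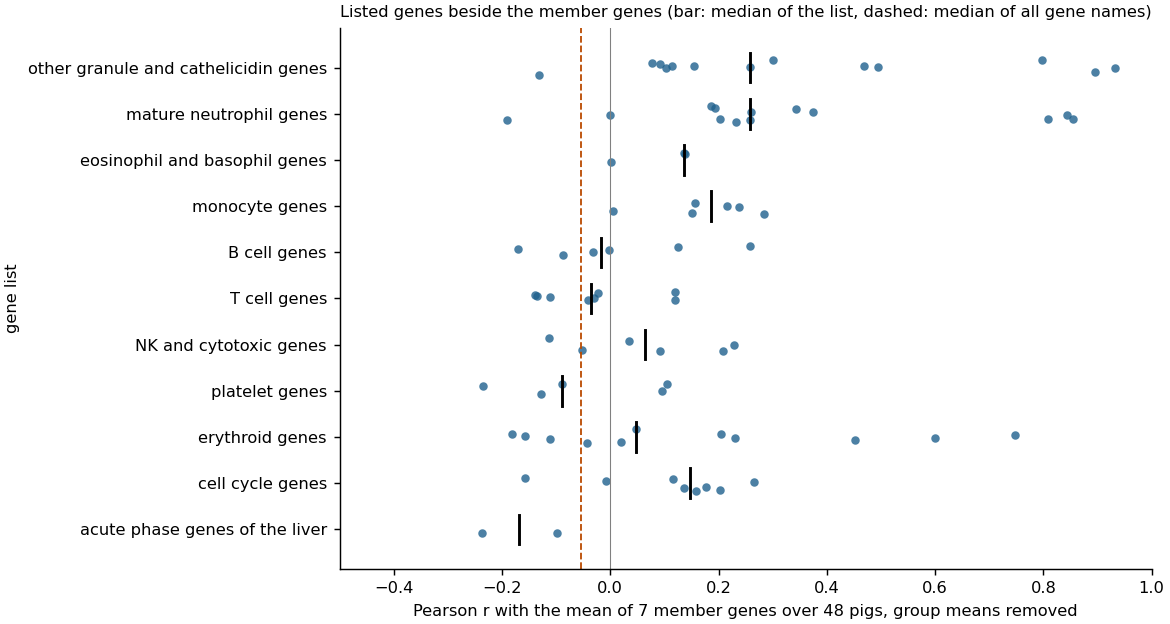
Each point is a listed gene, and the x axis is its Pearson's r with the mean of the 7 member genes over 48 pigs after group means were removed. The rows are the gene lists, black bars their medians and the dashed line the median of all gene names (-0.05). Points above 0.5 occur in the granule, neutrophil and erythroid lists only.

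The mean of the granule list had an r of 0.78 with the member mean and that of the mature neutrophil list 0.50, while the median r of single genes was 0.26 in both lists and 0.19 in the monocyte list. The r of the list mean was lower for the monocyte (0.28), erythroid (0.24), cell cycle (0.14), eosinophil and basophil (0.14), NK and cytotoxic (0.09), B cell (0.02), T cell (-0.04), platelet (-0.07) and liver acute phase (-0.18) lists. In the erythroid list EPOR (0.75) and KLF1 (0.60) followed the members, whereas HBB (-0.16), ALAS2 (-0.04) and AHSP (-0.18) did not. In the mature neutrophil list the mean level ran from 1.84 to 3.30 in low RFI HF, from 2.33 to 3.53 in low RFI LF, from 2.17 to 3.39 in high RFI LF and from 2.58 to 3.72 in high RFI HF pigs, and its part in the values of the members was not tested. The liver acute phase list rested on 2 genes with a retained probe, out of 12 listed. These genes, CRP (-0.10) and ALB (-0.24), had an r below 0, beside r from 0.67 to 0.93 of HP with the other 6 genes that had retained probes. The source of the HP transcripts was not tested.

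By line, 10 of 81 listed genes passed at an adjusted P-value below 0.05 in limma, against 2.73% of all gene names. Of the 7 members 0 passed. In the granule list SLPI, an inhibitor of neutrophil elastase, was higher in low RFI pigs by 1.07 (SE 0.24, adjusted P-value 0.0046), and CTSC, the protease that activates granule proteases, was lower by 0.27. In the neutrophil list CXCR2 was lower by 0.42. Further genes that passed were the monocyte receptor CD14 (-0.47) and the B cell gene MS4A1 (-0.36), lower in low RFI pigs, and the eosinophil receptor CCR3 (0.47), the erythroid anion exchanger SLC4A1 (0.26) and the T cell kinase LCK (0.21), higher in low RFI pigs. By list, 1 of 6 monocyte, 2 of 6 B cell and 1 of 3 eosinophil and basophil genes passed. So did 1 of 11 erythroid and 1 of 8 T cell genes, and numbers of cells were not read from single genes. No NK, platelet, cell cycle or liver gene passed. CTSC, LCK and SLC4A1 passed as means of several probes, and by the brightest probe alone the differences were -0.13, 0.26 and -0.08 and did not pass. CXCR2, with an adjusted P-value of 0.044 in limma, did not pass with background-corrected, median-centred signal (-0.40, adjusted P-value 0.050). LCK did not pass without high RFI HF replicate 1 (0.21), and SLC4A1 did not with the 75th percentile (0.31). With the faulty deposited column of that pig in place of the rebuilt one, MS4A1 alone of the 10 genes passed, and the adjusted P-value in limma was 0.069 for SLPI, 0.092 for CD14 and 0.26 for CCR3.

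Between 40771 and 46727 of the 60306 non-control spots of an array were well above background, the signal over local background at the retained spots had medians from 5.91 to 16, and no spot was saturated. Over the 48 pigs the member mean had an r of 0.15 with the number of spots well above background and of 0.25 with the signal to background ratio, group means removed, and their part in the results was not tested. Slides held 9.14% of the within-group variance of the member mean, below the 11.4% that a grouping without any slide effect would hold on average. The labels number the pigs of a group without naming litters or pens, so that P-values measure the spread between these pigs.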

How the data were processed

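Whole blood RNA of 48 pigs was hybridised to single-colour Agilent arrays and read by the authors with Feature Extraction 10.7.3.1. The deposited scanner files hold the intensity of each spot. The deposited table of the series holds log2 intensities of 37113 spots, which the authors filtered for quality and centred on the array median in R 3.0.2. Its columns equalled log2 of the median spot signal minus the array median of the retained spots in 47 arrays, within 1e-06. The remaining column, that of replicate 1 of the high RFI HF pigs, repeats 2.71 in all entries after the first 23 and was rebuilt from its scanner file.

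Gene values were the mean of the retained probes with a gene name (upper case). Line, diet and interaction were fitted with limma 3.58.1 in R 4.3.3 to every probe and every gene name, as in the authors' analysis of variance, with Benjamini-Hochberg adjustment over all of them and a threshold of 0.05. The fits were checked on simulated data. Co-variation was tested by permutation of pigs within groups. All 9 members were named with all their probes; listed genes were named if they passed the line or interaction test (at most 3 per list) or marked a cell type, and the 5 gene names most like the members and the 5 most like PMAP-23 were added. PRTN3, PMAP-36, ELANE, LYZ, EPOR and KLF1 were named after their values were seen. Some listed genes that passed are counted but not reported here. The members and lists were chosen with earlier results of these data known. Alternatives covered the signal, the normalization, the slide, the replicate number, the deposited column, the prior, the filter and the choice of probe. Gene names are those of the array, and all 9 matched RefSeq symbols of Sscrofa11.1; the build behind the probes is not given in the sources used here. The number of arrays limits the precision.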

Additional observations from a re-analysis of the deposited data

Results flagged for a closer look

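Among the spots of the members that the series table leaves out, 4 had a signal well above background on some arrays: the MPO spot on 27 of 48 arrays, a further PGLYRP1 spot on 47, and the BPI spots on 9 and on 6. The PGLYRP1 spot, of another sequence, had a median raw intensity of 66.5 and r of 0.87 and 0.88 with the retained PGLYRP1 spots, with group means removed. Its HF minus LF difference was 0.32, beside 0.59 and 0.68 for the retained spots. Whether it reads the same strand as the retained spots was not tested.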

How the results depend on the processing

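The member probes gave 0 calls for line and 0 for the interaction under all 11 alternatives run for each, which tested 19 of them except where all non-control spots (23) or spots well above background on every array (18) were used, and the 7 member genes gave 0 calls for line under their 8. The interaction had an unadjusted P-value below 0.05 for 5 of the 19 probes when replicate 1 of the high RFI HF pigs kept its column as deposited, and for 2 without that pig. All 7 genes stayed higher in HF pigs under the same 8 alternatives, and 21 of 21 pairs passed under all 9 alternatives run for the pairs, with the lowest r (0.55) when the 2 farthest pigs were left out and the group means taken over the remaining pigs. Without that pig, whose deposited column repeats a value, the line difference of LTF changed sign (-0.0048). With the deposited column in place of the rebuilt one, the listed genes called for line were 1 of 81 (MS4A1) instead of 10, and the calls over all probes were 265 instead of 1027; with the brightest probe, chosen as an alternative for the listed genes after seeing the data, they were 6, and SLC4A1 changed sign (-0.081). With a replicate block the calls were 0 of 19 probes for line, 0 for the interaction and 10 of 81 listed genes, and 1496 probes in all. Of 72 pairs of pigs with the same number, 44 had deviations correlated above 0.1. The lowest r was -0.60, against -0.77 on other slides. The median r was 0.20, against 0.090 on the same slide and -0.041 on other slides, and 22 of 48 pigs correlated best with their own number. The labels do not say what the numbers stand for, and the main fit did not take them as blocks. The correlations of member pairs were not run with the means of the numbers removed. Signal near background limits MPO and BPI, which have 27 and at most 9 arrays well above it.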
